A study of Caenorhabditis elegans with 2 samples.

Results

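The genes described here are the 40 protein-coding genes of Caenorhabditis elegans whose names begin with eif-, eef-, ife-, ifg-, iff- or inf-, of 19973 protein-coding genes in all. They were chosen by name alone from the Ensembl annotation of WBcel235, the ce11 build. The 32 genes named eif-, ife-, ifg- or inf- were taken as initiation factors and the 6 named eef- as elongation factors, while the 2 iff- genes, which encode eIF5A, were kept apart. Chromatin immunoprecipitation sequencing had been carried out with an anti-GFP antibody on whole hermaphrodite late embryos, 5 hours after synchronization by bleaching. The strain was OP509, with the genotype unc-119(tm4063) III; wgIs509, in which ETS-4 carries a C-terminal GFP-FLAG tag. All samples came from that 1 transgenic strain, and the promoter that drives the transgene is not given in the sources used here. The 2 samples were biological replicates of 1 group, so no conditions could be compared. What could be asked was how high the deposited signal of tagged ETS-4 ranked at the start of each translation factor gene. A second question was whether the initiation and elongation factors differed.

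Translation initiation brings the small ribosomal subunit, loaded with the initiator tRNA by eIF2, to the start codon. eIF3 is the large scaffold on that subunit, and eIF4E, eIF4G and eIF4A bind and unwind the capped end of the messenger RNA. In elongation, eEF1A delivers aminoacyl-tRNAs, the eEF1B complex recharges eEF1A with GTP, and eEF2 moves the ribosome along the message. ETS-4 is a transcription factor of the ETS family, known in C. elegans for roles in lifespan, fat metabolism and axon regeneration.

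Each gene was given a promoter window around every protein-coding transcript start, reaching 1000 bp upstream and 200 bp downstream. The gene's value was the highest signal of any region with its summit there. Signal is the peak caller's value per region, given by the authors on a scale that is not stated, and it ranks regions within 1 list. Whether the replicate lists share a scale is not stated, so a higher value or a ratio between replicates describes the deposited numbers and not the amount bound. The replicate 1 list held 15619 regions, the replicate 2 list 14622 and the pooled list 12348, weak regions included. The pooled list is labelled as peaks and background together. In each of these lists the deposited −log10 q reached down to 0.018, so a listed region is not by itself a call of binding. The 1106 regions that passed the irreproducible discovery rate (IDR), called IDR peaks here, had pooled signals from 71.1 to 1137. The lists hold no read counts, and the sequencing depth is therefore unknown. Where n is 2, both replicate values are printed and no test is made.

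The sequences at the summits of 5 members are shown because they carry the contrasts described further on. They are the strongest member summits outside the chromosome whose sequence is not printed (eif-3.B and iff-2), a weaker eIF3 summit (eif-3.D) and the summits of both eEF1A genes. Each is read from the ce11 genome 5′ to 3′ on the strand of the member gene, up to 75 bp either side of the summit, and holds no annotated exon. Capitals mark GAGAGA and CGTCTC on either strand, 2 words that are frequent at IDR peaks of this experiment.
eif-3.B, plus strand, II:14795086-14795236: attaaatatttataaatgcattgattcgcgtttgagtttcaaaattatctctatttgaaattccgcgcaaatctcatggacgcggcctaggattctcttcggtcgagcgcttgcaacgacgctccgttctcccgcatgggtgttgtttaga
iff-2, minus strand, II:8561386-8561536: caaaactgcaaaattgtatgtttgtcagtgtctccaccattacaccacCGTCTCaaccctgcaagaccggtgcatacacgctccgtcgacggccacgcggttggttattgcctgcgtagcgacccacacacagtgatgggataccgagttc
eif-3.D, minus strand, III:8971706-8971856: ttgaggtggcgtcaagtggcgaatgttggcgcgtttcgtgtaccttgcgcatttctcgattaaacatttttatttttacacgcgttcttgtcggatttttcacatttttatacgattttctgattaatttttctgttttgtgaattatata
eef-1A.1, minus strand, III:6971990-6972140: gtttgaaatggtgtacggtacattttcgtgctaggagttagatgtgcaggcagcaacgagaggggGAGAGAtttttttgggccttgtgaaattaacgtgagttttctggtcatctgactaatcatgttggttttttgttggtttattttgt
eef-1A.2, plus strand, X:7823174-7823324: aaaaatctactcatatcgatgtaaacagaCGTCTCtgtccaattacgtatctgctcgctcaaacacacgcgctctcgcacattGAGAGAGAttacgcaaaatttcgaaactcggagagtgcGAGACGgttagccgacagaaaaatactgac

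Of the 40 genes, 12 (30%, 95% Wilson interval 18.1 to 45.4%) had an IDR summit within their promoter windows, where 5.34% of all protein-coding genes had one. They were eif-1, eif-3.B, eif-3.C, eif-3.D, eif-3.E, eif-3.I, eif-4A3 and ifg-1 among the initiation factors, eef-1A.1, eef-1G and eef-2 among the elongation factors, and iff-2. Another 18 members had a weaker summit in the pooled list, so that 30 of 40 (75%) were in that list, against 26.5% of all genes. Because that list includes background, these 18 are not calls of binding. Their pooled −log10 q ran from 0.0247 at eif-3.K to 1.85 at eef-1A.2. A further 6 had a summit in a replicate list alone, and 4 (10%) had none in any list, against 59.3% of all genes. Both replicate lists held a summit for 24 members (60%), against 18.1% of all genes. Intervals cover counting error only, and the members share a name and not an independent origin, so these shares are descriptions.

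Counted only for the gene with the nearest start, 7 members kept an IDR summit (3.74% of all genes did), and eef-1A.1, eif-1, eif-3.D, eif-4A3 and ifg-1 dropped out. Those 5 summits lay closer to the start of another gene than to the member's own. Among the 1106 highest regions of replicate 2 alone, 13 members had a summit, as did 5.17% of all genes. Among those of replicate 1 alone 9 members did, and 5.07% of all genes.

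**Figure D1:**
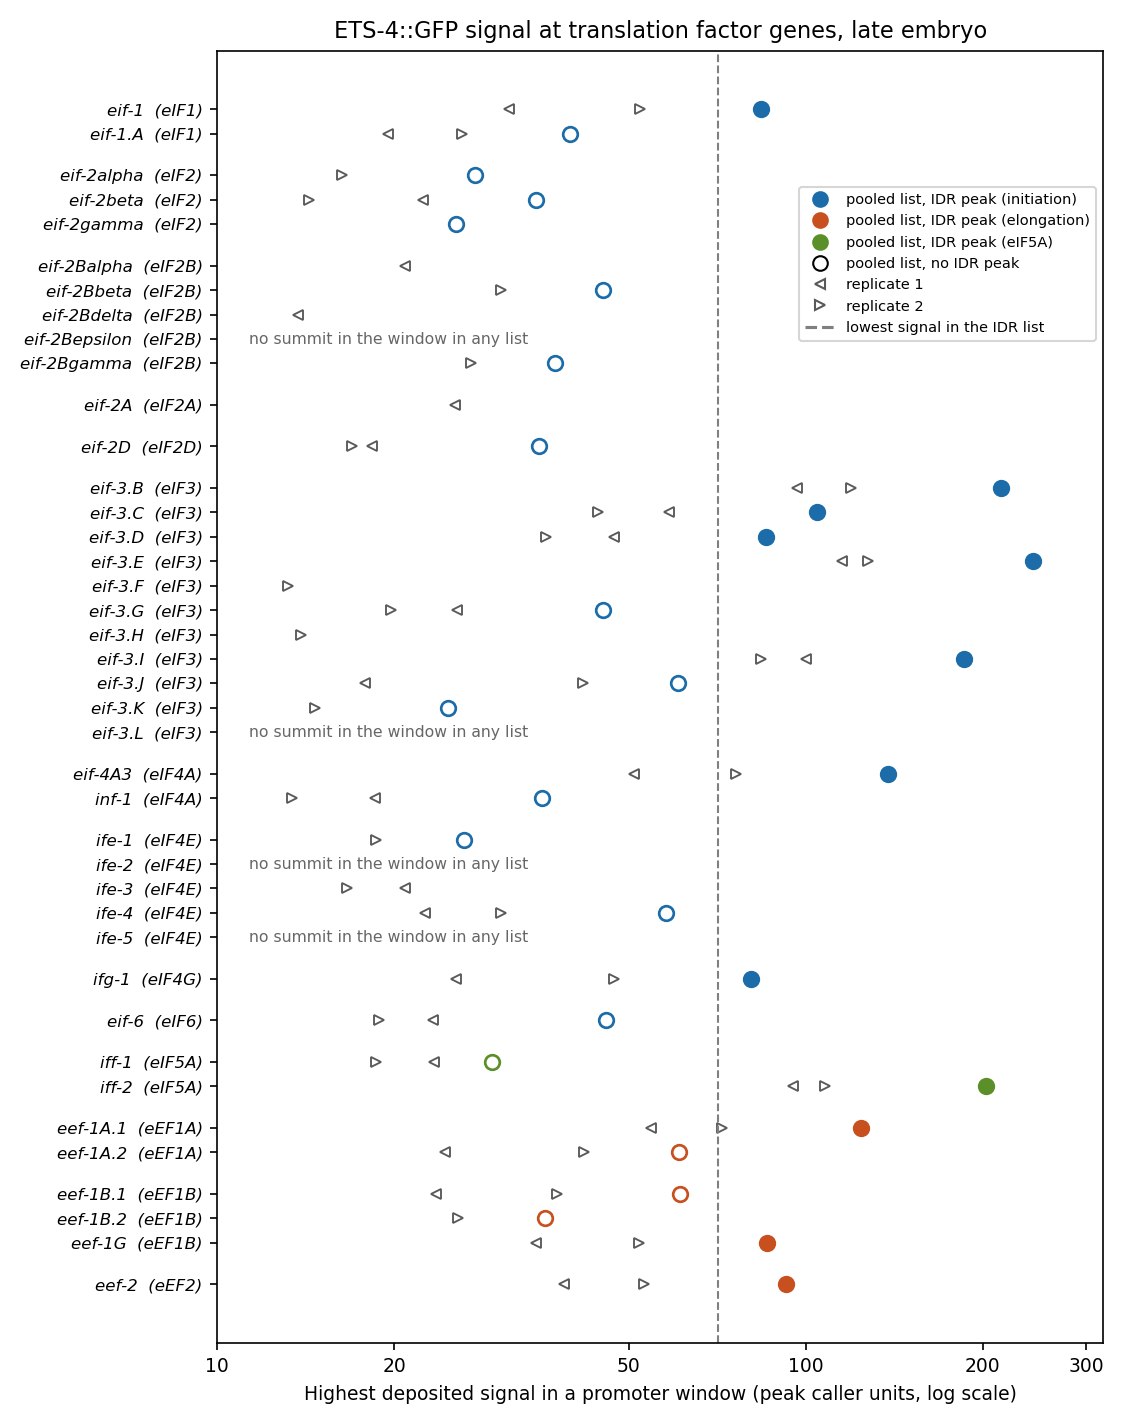
Highest signal in a promoter window for each of the 40 genes, grouped by factor, in the peak caller's units on a log axis. Circles give the pooled list (filled for an IDR peak), triangles the separate replicate lists, and the dashed line the lowest signal in the IDR list, 71.1. The 12 filled circles lie between 80.7 and 242.9, and the highest belong to eif-3.E, eif-3.B, iff-2 and eif-3.I.

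Taken as classes, the elongation factor genes had the higher median signal, but too few genes to separate their share of IDR summits from that of the initiation factors. The median of the highest pooled signal was 73.6 over the 6 elongation factors and 35.4 over the 32 initiation factors, with genes that lacked a region ranked lowest. Over all protein-coding genes the median gene had no pooled region. In replicate 1 the class medians were 29.6 and 19.0, and in replicate 2 they were 47.0 and 17.8, in the same order. IDR summits stood at 3 of 6 elongation factors (50%, 95% Wilson interval 18.8 to 81.2%) and at 8 of 32 initiation factors (25%, interval 13.3 to 42.1%). These intervals overlap widely. With each summit counted only for the nearest start, 2 elongation and 4 initiation factors kept 1. Every elongation factor had a pooled region, while 22 of the 32 initiation factors did. Some of these regions were near background, such as that of eef-1B.2, with a −log10 q of 0.396. The initiation median fell between inf-1 and eif-2D, whose −log10 q were 0.371 and 0.346. The highest values of all, by contrast, belonged to initiation factors and to eIF5A. The name rule puts eif-4A3, a helicase of the exon junction complex, among the initiation factors. Without it 7 of 31 had an IDR summit.

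**Figure D2:**
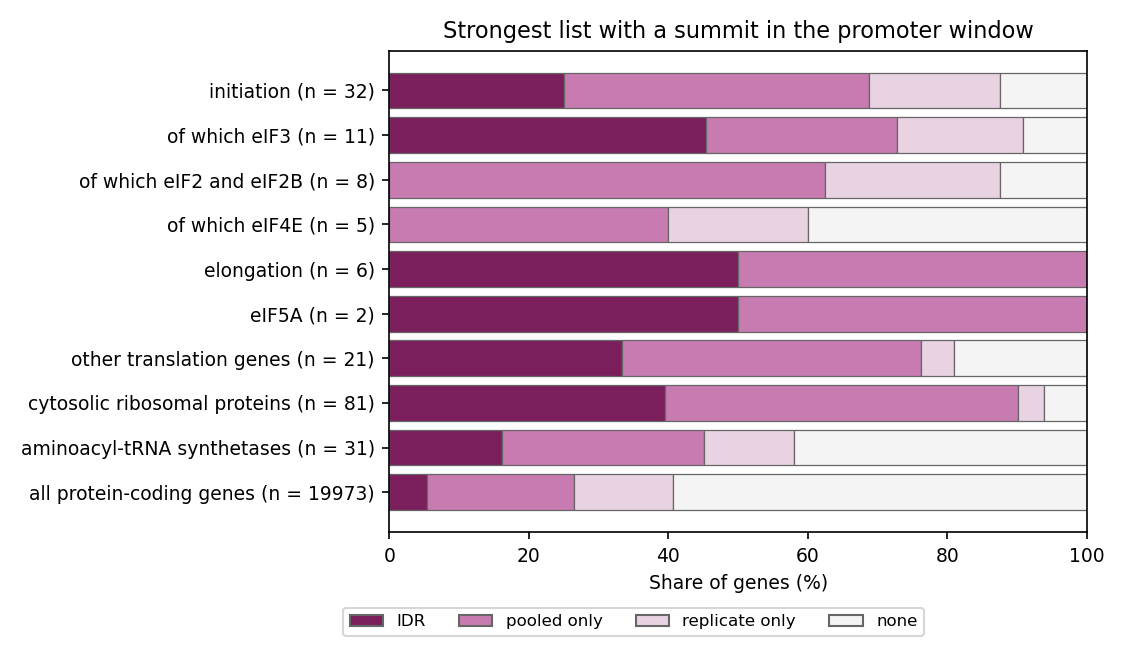
Share of genes (%) by the strongest list that held a summit in the promoter window, for the classes of translation factor, related gene sets and all protein-coding genes. IDR summits make up 45.5% of the eIF3 bar and 0% of the eIF2 and eIF2B bar.

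The eIF3 genes held the strongest summits of the initiation class. Of the 11 genes named eif-3, 5 (45.5%, 95% Wilson interval 21.3 to 72.0%) had an IDR summit. The median pooled signal of the 11 was 60.6. A subunit gene of eIF3 under another name falls outside the name rule and is not counted. Outside eIF3, 3 of the 21 initiation factors had an IDR summit (14.3%, interval 4.98 to 34.6%), and the median was 34.8. The intervals overlap, and the split was made after the values were seen. The gene eif-3.E had a pooled signal of 242.9 at I:10642508, 227 bp upstream of its start, with 115.2 in replicate 1 and 127.4 in replicate 2. It ranked 60 of 12348 in the pooled list, the highest of all 40 members. The eif-3.E summit was also in the window of B0511.17. For eif-3.B, whose product is part of the RNA-binding core of eIF3, the pooled signal was 215.1 at II:14795161, 243 bp upstream, with 96.6 and 119.2 in replicates 1 and 2. No other protein-coding gene had this summit in its window, and the summit sequence printed for eif-3.B holds neither marked word.

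For eif-3.I, a WD-repeat subunit, the pooled signal was 185.8 at I:2487896, with 100.2 in replicate 1 and 83.9 in replicate 2. This summit lay in an intron of eif-3.I itself, 508 bp upstream of the second of its 2 annotated starts. With a window of 500 bp upstream and 100 bp downstream it was no longer counted, and the highest pooled signal of eif-3.I was 63.1. The eif-3.C value was 104.5 pooled, 58.6 in replicate 1 and 44.3 in replicate 2, with the summit 233 bp upstream. The eif-3.D value was 85.8 pooled, 47.3 and 36.2 in replicates 1 and 2, at III:8971781. That summit was 203 bp from the start of eif-3.D and 111 bp from that of its neighbour R08D7.4. With replicate 1 left out, eif-3.D was not among the top 1106 regions of replicate 2. Replicate 1 was thus the higher of the pair at eif-3.C, eif-3.D and eif-3.I, and replicate 2 at eif-3.B and eif-3.E.

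The other eIF3 genes ranged from a weak region to none. The product of eif-3.J is a loosely bound subunit, and its pooled signal was 60.6, with 17.8 in replicate 1 and 41.9 in replicate 2, so that the signal rested mainly on replicate 2. With replicate 1 left out it passed into the top 1106. The genes eif-3.G (45.3) and eif-3.K (24.6) had pooled regions only. For eif-3.F and eif-3.H a single weak region in replicate 2 was listed, at 13.2 and 13.9, and eif-3.L had none. Among the subunit genes with a pooled region, the signal thus ran from 24.6 at eif-3.K to 242.9 at eif-3.E.

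None of the 8 genes of eIF2 and of its exchange factor eIF2B had an IDR summit. For 8 genes the Wilson interval of that share reaches 32.4% and holds the 5.34% of all protein-coding genes, so the count does not set these genes apart from the background. The eIF2 genes had weak pooled regions, at 27.4 for eif-2alpha, 34.8 for eif-2beta and 25.5 for eif-2gamma. eif-2beta alone was in both replicate lists, at 22.4 and 14.3, and the 2 summits lay 693 bp apart. Of the eIF2B genes, eif-2Bbeta (45.2) and eif-2Bgamma (37.5) were in the pooled list through regions seen in replicate 2 alone. eif-2Balpha and eif-2Bdelta were listed in replicate 1 alone, at 20.8 and 13.7, and eif-2Bepsilon, the catalytic subunit, in no list. The eif-2Bgamma summit lay in an intron of C15F1.5 and within 500 bp of the small RNA genes sup-39 and mir-1831. It was the only 1 of the 30 member summits with a tRNA, snoRNA or snRNA gene of the annotation that near. The same count was not made over the summits of all genes. eif-2D had 35.2 in the pooled list and eif-2A had 25.3 in replicate 1 only.

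The eIF4E family, which binds the cap, also had no IDR summit in 5 genes, with a Wilson interval up to 43.4%, which also holds the 5.34% of all genes. The highest was ife-4, on the X chromosome, at 57.9 pooled, 22.5 in replicate 1 and 30.3 in replicate 2, with the summit 101 bp upstream. ife-1 had 26.2, at a summit 920 bp upstream that lay in a coding exon of nud-1. ife-3 had no pooled summit in its window, and its replicate summits, at 20.8 and 16.6, were 525 bp apart. An IDR peak of signal 75.1 lay 1022 bp from its start, just outside the window, and counted for ife-3 in the window of 2000 bp. ife-2 and ife-5 had no summit in any list.

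Of the partners of eIF4E, the scaffold gene ifg-1 had the lowest IDR signal of the members, 80.7, with 25.4 in replicate 1 and 47.3 in replicate 2. With replicate 2 left out ifg-1 lost its place in the top 1106. Its summit, at II:8216539, was 683 bp upstream of ifg-1 and in the 5′ UTR of M110.3, whose start was 77 bp away. The gene of the helicase eIF4A, inf-1, had 35.6, with 18.5 in replicate 1 and 13.4 in replicate 2. The related eif-4A3 had 137.8, with 51.0 and 76.1, but its summit lay in the 5′ UTR of vps-20, 12 bp from the start of that ESCRT gene and 471 bp from its own. Counted for the nearest start only, the highest pooled signal of eif-4A3 was 24.9. eif-6, whose product keeps the ribosomal subunits apart, had 45.8, between eif-6 and the proteasome gene pbs-2 at 333 bp from each start.

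The start codon selection factors differed in a similar way. eif-1 had a pooled signal of 83.8, with 31.3 in replicate 1 and 52.3 in replicate 2, at a summit 380 bp upstream and 38 bp from the start of vps-24. That summit was also in the window of pigb-1. With replicate 2 left out eif-1 was no longer among the top 1106. eif-1.A had 39.7, with 19.5 and 26.1, and no IDR summit.

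The eIF5A genes, iff-1 and iff-2, stood far apart. eIF5A is a hypusine-bearing factor that acts at stalled ribosomes, and in C. elegans iff-1 is known for its germline role and iff-2 for its role in the soma. iff-2 had a pooled signal of 202.6 at II:8561461, 94 bp upstream of its start, with 95.3 in replicate 1 and 107.7 in replicate 2. It ranked 118 in the pooled list, 109 in replicate 1 and 131 in replicate 2. The iff-2 summit was also in the window of F54C9.14. iff-1 had 29.4 at a summit 136 bp downstream of a start, in its own intron, and the replicates listed 23.4 and 18.6 at summits 1076 bp apart. The iff-2 signal lay above that of iff-1 in both replicates.

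Among the elongation factors, both eEF1A genes had a summit 300 to 500 bp upstream of the start, 353 bp at eef-1A.1 and 405 bp at eef-1A.2. eef-1A.1, on chromosome III, had a pooled signal of 124.0, with 54.5 in replicate 1 and 72.1 in replicate 2. eef-1A.2, on the X chromosome, had 61.0, with 24.4 and 42.0, and was the lower in each replicate. It missed the IDR list, whose lowest signal was 71.1, and was in the top 1106 of replicate 2 alone. The eef-1A.1 summit was nearer to the start of rfc-4, a clamp loader gene, at 188 bp, while that of eef-1A.2 was in no other gene's window. Both printed summit sequences of the eEF1A genes hold GAGAGA, and only that of eef-1A.2 holds CGTCTC.

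For eef-2, the translocase gene, the pooled signal was 92.6, with 38.8 in replicate 1 and 53.0 in replicate 2, at I:9163501, 30 bp upstream of a start. The summit was also in the window of clsp-1. eef-1G, a subunit gene of the eEF1B complex, had 86.1, with 34.7 and 52.1, at a summit 26 bp inside its own 5′ UTR that was shared with ctf-4. With replicate 2 left out, eef-1G was not in the top 1106. The other eEF1B genes were below the IDR list, eef-1B.1 at 61.0 (23.5 and 37.7 in replicates 1 and 2) and eef-1B.2 at 36.1, with 25.7 in replicate 2 and no region in replicate 1. Replicate 2 was the higher at all 5 elongation factors listed in both replicates, and at 8 of 17 such initiation factors. The 17 include eif-2beta and ife-3, whose replicate summits lay 693 and 525 bp apart. Among genes with an IDR summit, replicate 2 was higher at 3 of 3 elongation and 5 of 8 initiation factors. Over all such genes in both lists it was higher at 707 of 1064.

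The IDR list selects regions that the replicates share, so replicate summits close together are in part a result of that selection. At the 12 members with an IDR summit the replicate summits were 1 to 66 bp apart, with a median of 28.5 bp. The same distance was not counted over all genes with an IDR summit. Of the 24 members in both replicate lists, only iff-1, eif-2beta and ife-3 had replicate summits more than 150 bp apart, so their paired values belong to different regions. Replicate 2 was higher at 9 of the 12 IDR members, with a median ratio of replicate 2 to replicate 1 of 1.28 and a range of 0.756 to 1.86. Over all 1064 genes with an IDR summit and a region in both lists the median ratio was 1.14, and replicate 2 was higher at 707.

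**Figure D3:**
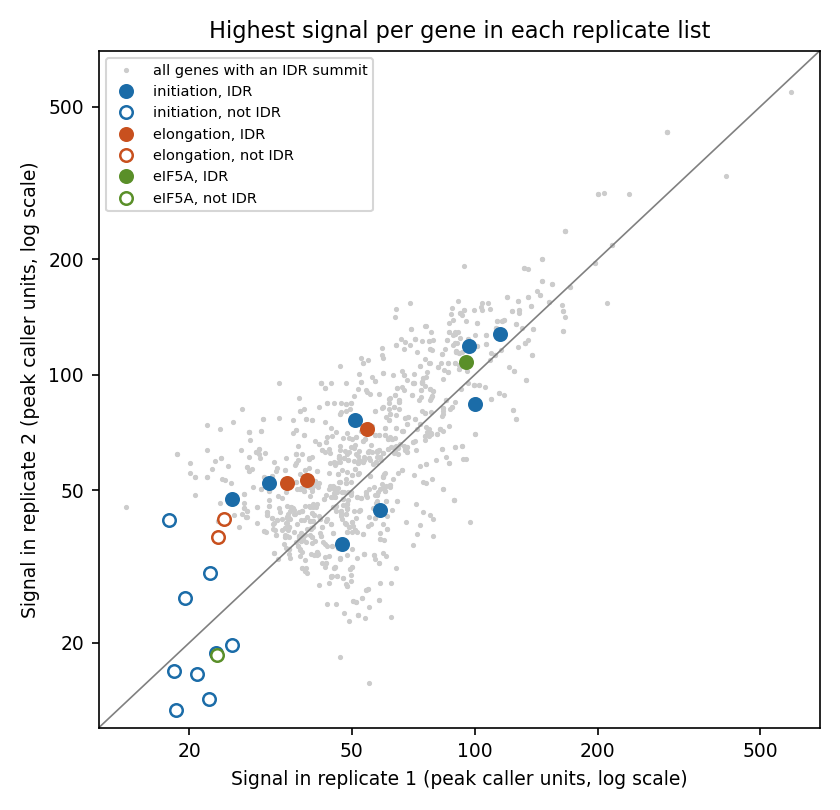
Highest signal per gene in replicate 1 (horizontal) and replicate 2 (vertical), in the peak caller's units on log axes, with the line of equal signal. Grey points are all genes with an IDR summit, filled circles the 12 members with one and open circles the members without. The ratio of replicate 2 to replicate 1 runs from 0.756 at eif-3.C to 1.86 at ifg-1 among the filled circles.

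Most member summits lay in intergenic sequence upstream of the start. Of the 12 IDR summits, 8 were intergenic, and 11 were upstream of the member's nearest start, at a median distance of 238 bp (range 26 to 683 bp). Over all 1066 genes with an IDR summit, the summit was upstream at 1015, and the median distance was 247 bp. The upstream count of the members is thus that of genes with an IDR summit in general. The window itself reaches 1000 bp upstream and only 200 bp downstream. The intergenic share over all genes was not counted. The window of at least 1 other protein-coding gene held the summit at 9 of the 12 (75%), against 58.7% of all genes with an IDR summit. The member's own start was the nearest at 7 of 12 (58.3%), against 69.1%. At a shared summit the data do not say which gene the binding belongs to. The 3 members whose IDR summit was in no other window were eif-3.B, eif-3.C and eif-3.I. The 18 summits below the IDR list lay 49 to 920 bp from the member's start.

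**Figure D4:**
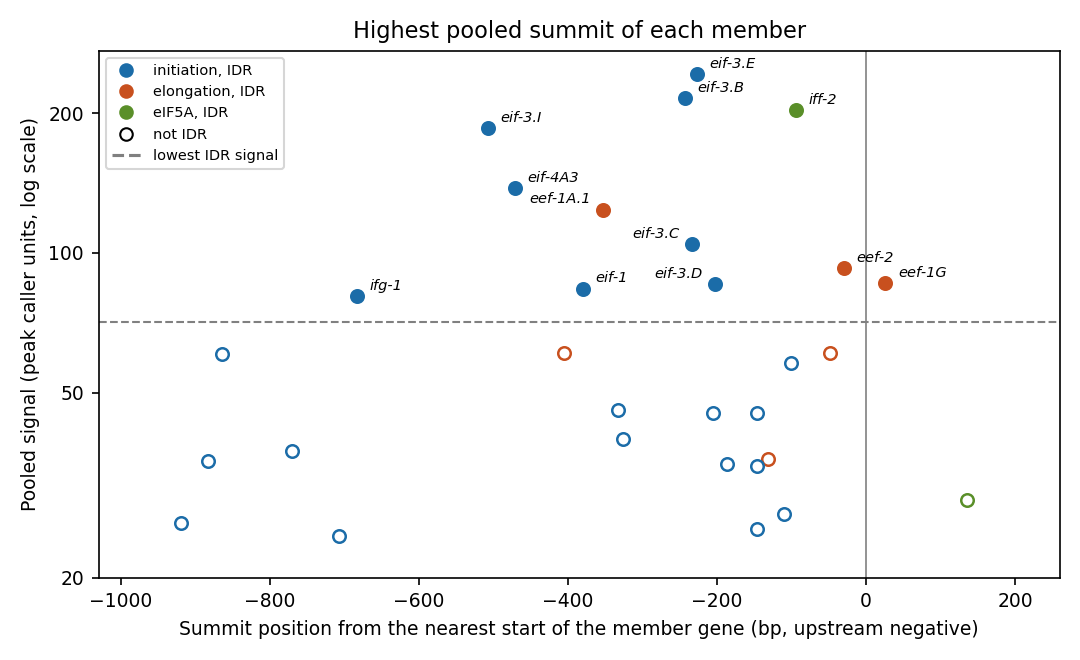
Position of each member's highest pooled summit from the nearest start of its gene (bp, upstream negative) against its pooled signal (peak caller's units, log axis). The 12 filled circles are IDR peaks and lie from 683 bp upstream to 26 bp downstream, above the dashed line at 71.1.

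The IDR peaks of the members had little of the GAGAGA repeat. Within 100 bp of the summit and on either strand, the word occurred at 1 of the 12 member IDR peaks (8.33%), that of eef-1A.1. It was at 436 of all 1106 IDR summits (39.4%) and at 250 of the 763 in promoter windows (32.8%). The count stayed at 1 of 12 within 50 bp and within 250 bp, while the share over all promoter IDR summits was 20.3% and 44.7%. Weaker member summits had GAGAGA at 5 of 18 (27.8%), near the 24.7% of all promoter summits below the IDR list. The word CGTCTC was at 1 of 12 member IDR summits, that of iff-2, against 24.4% of promoter IDR summits, and CCGCCC at none, against 12.8%. The ETS core GGAA, short enough to be common anywhere, was at 10 of 12 (83.3%), against 81.5%, and the longer ETS form CCGGAA at 1, that of eif-3.I, against 5.90%. The GATA word TGATAA was at 2, those of eif-1 and eif-3.E, against 6.95%. Mean GC content within 100 bp was 41.2% (SD 4.59, n = 12 summits) at the member IDR summits and 43.5% (SD 7.71, n = 763) at all promoter IDR summits. With 12 summits these shares carry wide counting error, and a word match is a description of the letters and not of a bound site.

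Members were also divided by whether they directly follow another gene on the same strand. In C. elegans such closely spaced genes are often transcribed together as operons, from a promoter further upstream. A same-strand protein-coding gene ended within 500 bp upstream, or overlapped the start, at 8 members, of which 1, eif-3.C, had an IDR summit (12.5%). Of the other 32 members 11 did (34.4%). Over all protein-coding genes the shares were 3.40% of 4003 closely spaced genes and 5.82% of the remaining 15970. With 8 closely spaced members, the difference between the members' shares rests on very few genes and was not tested. None of the 8 upstream neighbours had an IDR summit in its own window.

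The members were spread over all 6 chromosomes, with 12 each on I and II, 7 on III, 2 on IV, 4 on V and 3 on X. IDR summits stood at 5, 4, 2, 0, 1 and 0 of them, in that order. The Wilson interval of the share reaches 65.8% for the 2 members on IV and 56.1% for the 3 on X. The share over all protein-coding genes was not counted by chromosome. These counts therefore do not show that any chromosome was favoured or lacked summits.

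Other genes of translation had IDR summits at a share close to that of the members. Of a list of 24 genes for termination, poly(A) binding, recycling, regulation and mitochondrial translation factors, 21 were found by name and 7 (33.3%, 95% Wilson interval 17.2 to 54.6%) had an IDR summit. They were larp-1 (pooled signal 287.9), which encodes an RNA-binding regulator of translation, the mitochondrial elongation factor genes tufm-2 (171.3) and gfm-1 (126.3), the eIF4E-binding repressor gene ifet-1 (158.9), the release factor genes erfa-1 (107.0) and erfa-3 (87.7), and abcf-2 (103.5). Each of these 7 genes had the same pair of replicate values as another gene with an IDR summit. Their regions thus lay in the windows of other genes too, and the data do not say which gene the binding belongs to. The poly(A)-binding protein genes pab-1 and pab-2 had pooled signals of 40.0 and 59.8 and no IDR summit. The kinase gene of eEF2, efk-1, had no summit in any list. Cytosolic ribosomal protein genes had IDR summits at 32 of 81 (39.5%, interval 29.6 to 50.4%) and a median pooled signal of 53.3, between the medians of the initiation and elongation factors. Aminoacyl-tRNA synthetase genes had them at 5 of 31 (16.1%, interval 7.09 to 32.6%).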

How the data were processed

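ChIP-seq regions of 2 biological replicates of 1 group were used as deposited, in ce11. Per the readme texts that the authors deposited with the samples, the lists of single replicates came from 1 set of alignments and a control each, the pooled list from both replicates, and the IDR list from these lists. No source used here gives the peak caller, its version or the IDR threshold. The signal (column 7) and the −log10 q (column 9) of each region are the values deposited by the authors. The ce10 lists were not used, since no ce10 annotation was used here.

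From these, Python 3.11.15 assigned summits to the windows of 29314 starts of protein-coding transcripts (Ensembl release 115, WBcel235). Genes were counted by identifier, 19973 in all, because some share 1 of the 19865 names. Sequence was read from the RefSeq WBcel235 genome. Wilson intervals were computed with SciPy 1.17.1. No test was made, since genes are not replicates and the groups number 1. The assignment was tested on planted summits.

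The members and lists were chosen with earlier results of these data known. Named genes are those with an IDR summit, the 3 highest others of each class, all eef-, ife-, ifg-, inf- and iff- genes and those without a region, and further members were named to give their values. The eIF3 and eIF2 counts, neighbouring genes, small RNA genes and replicate summit distances were added after the values were seen. Of the fixed list of other translation genes, gfm-2, mcts-1 and denr-1 were not found by name. Alternatives were other windows (500/100 and 2000/200 bp), the nearest start only, any overlap, the upper 50% of IDR peaks, each replicate alone and iff- genes counted with either class.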

Additional observations from a re-analysis of the deposited data

How the results depend on the processing

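Counting each summit for the nearest start only gave 4 initiation factors and 7 members in all with an IDR summit, and a median pooled signal of 61.0 for the elongation factors. The upper 50% of IDR peaks gave 4 initiation factors, 1 elongation factor, 3 eIF3 genes, 6 members and 2.97% of all genes, fewer by construction. The window of 2000/200 bp moved the median of the initiation factors to 38.6. That median has no value in the window of 500/100 bp or with the nearest start only, since a region was then present at only 16 and 14 of the 32 genes, too few to fill the middle pair. In 1 replicate alone the medians ran from 17.8 to 19.0 for the initiation factors and from 29.6 to 47.0 for the elongation factors. Whether the replicate and pooled lists share a scale is not stated, so these medians are not set against the pooled ones. The other counts of genes with an IDR summit stayed within 1.5 times. The window of 500/100 bp lost eif-3.I and ifg-1, and that of 2000/200 bp gained eif-3.K and ife-3. With the iff- genes counted in, 4 elongation or 9 initiation factors had an IDR summit. Depth is unknown, so a missing region cannot be told apart from 1 too weak to list.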

Other observations

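The 10 members without a pooled summit in the window differed in how far away the nearest one lay. eif-2Bdelta had a pooled region of signal 31.2 at V:9514475, 298 bp from a start and so just past the downstream end of its window, and replicate 2 listed 20.01 there. eif-2Balpha had a replicate 2 region of 17.8 at III:9543322, 203 bp downstream of its start and so just outside the window, and an IDR peak of 94.3 at III:9546167, 3048 bp from the start. For ife-2 a weak region lay 4674 bp from its start in the pooled list, at 33.2, and in replicate 1, at 16.6, and 4665 bp away in replicate 2, at 16.0. For ife-5 the nearest pooled region was 9328 bp away and for eif-2Bepsilon 18006 bp away. eif-3.L had its nearest pooled region at 19475 bp. The nearest IDR peaks of eif-2Bepsilon and eif-3.H were 92340 and 91399 bp away.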
